A study of Mus musculus with 7 samples.

Results

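The Schlafen genes form a family of immune-regulated genes that lie side by side on mouse chromosome 11. The 8 members (Slfn1, Slfn2, Slfn3, Slfn4, Slfn5, Slfn8, Slfn9 and Slfn10-ps) were selected on their symbol, as 8 of the 48440 genes of the deposited table. The family itself was chosen by measured values, because it was taken up with the difference between the genotypes in these libraries known, Slfn9 being among the genes that differed. The levels and fold changes of the members are therefore given as a description, and nothing is supported with them.

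RNA was sequenced from LSK cells, the lineage-negative, Sca1-positive and cKit-positive bone marrow (BM) fraction that holds hematopoietic stem cells and multipotent progenitors. The cells came from C57BL/6 recipients that had been irradiated with 9.5 Gy and given unfractionated BM, either from wild-type donors (4 libraries) or from donors with a constitutive, endonuclease-mediated PROSER1 KO (3 libraries), and were taken at day 77 (11 weeks). Both groups were thus irradiated transplant recipients of the same strain and time point, the age of the animals was not given in the sources used here, and any LSK cells remaining from the host cannot be told apart from donor cells. Read pairs assigned to genes numbered 33143619 to 42742329 in wild-type libraries and 37140168 to 45140743 in libraries labelled PROSER1 KO. Values are normalised counts, which are read pairs per gene divided by 1 size factor per library, and 3 read pairs, which a gene with a count of 0 could still have, equal between 2.54 and 3.48 normalised counts (counting error only).

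Schlafen proteins were named for the growth arrest that the first members caused in T cells, and many of the genes are switched on by type I interferon. All members share an N-terminal core domain, and members of the long form (group III) also carry a helicase-like region, whereas the short (group I) and intermediate (group II) forms lack it. Several Schlafen proteins bind or cut transfer RNA, and Slfn2 is known for keeping T cells and monocytes quiescent.

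Proser1 (ENSMUSG00000049504, chr3:53463666-53481755), the targeted gene, had 2019, 2153, 2103 and 2077 normalised counts in wild-type libraries 1 to 4 and 2464, 2359 and 2338 in the 3 libraries labelled PROSER1 KO. Its mRNA was thus not lower but somewhat higher in all libraries labelled PROSER1 KO, without overlap (log2 fold change 0.19, standard error 0.049, limma, adjusted p = 0.204), and every direction given here rests on the labels. The labelled cell type was checked with 10 LSK markers, all of which were detected, with a summed level of 111873, 112827, 125356 and 115080.0 in the wild-type libraries and 112036, 115985 and 114061 in the libraries labelled PROSER1 KO (most abundant gene, Cd34, mean 32235). Markers of plasma cells were also abundant, all 7 being detected, with Jchain at 151607 to 384345 normalised counts in the wild-type libraries and 179939 to 269328 in those labelled PROSER1 KO, so that the groups overlapped. Markers of the other cell types looked at were detected too, so detection alone does not identify the cells.

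The 8 members lie within 264 kb (chr11:82951349-83215154, GRCm38). Slfn5 (forward strand) comes first and is followed by Slfn9, Slfn8 and Slfn10-ps, all of them on the reverse strand, and then by Slfn2, Slfn1, Slfn4 and Slfn3 on the forward strand. Coding length followed the groups, with 337 codons in Slfn1 and 378 in Slfn2 (group I), 640 in Slfn3 and 602 in Slfn4 (group II), and 884 in Slfn5 and 910 each in Slfn8 and Slfn9 (group III). Slfn10-ps is annotated as a transcribed pseudogene and is placed with group III here, by its resemblance to Slfn8 and Slfn9.

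Some neighbouring members are close copies of each other and others are not. The coding sequences of Slfn8 and Slfn9 shared 92.7% of aligned bases, and the Slfn10-ps transcript matched Slfn8 at 92.8% and Slfn9 at 93.2%. Slfn3 and Slfn4 shared 92.3%, whereas Slfn5 stood further from the other group III members, at 63.4% with Slfn8, and Slfn1 matched its neighbours Slfn2 and Slfn4 at 71.3% and 75.3%. Of all stretches of 50 bases in the annotated transcripts, 19.7% for Slfn10-ps, 14.6% for Slfn8 and 11.9% for Slfn9 occurred in at least 1 other gene, mostly in one another, and so did 16% for Slfn3, 11.3% for Slfn4 and 11.1% for Slfn5. With stretches of 100 bases these shares were 7.84%, 3.38%, 3.71%, 2.92%, 0.271% and 6.40%. Slfn5 shared most of them with its antisense gene Slfn5os, and Slfn3 shared 93 of 99 stretches of 100 bases with Gm11427. Read pairs from such stretches could have been assigned to the wrong copy or left out by the authors' counting, so the split between Slfn8, Slfn9 and Slfn10-ps is uncertain, and the counts of the other members may be affected too. Slfn3 and Slfn4 shared stretches of 50 bases with each other but none of 100 bases.

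Promoter sequences, 250 bases before to 50 after the start of a gene, were found in RefSeq (GRCm38.p6) for 7 of the 8 members. They are shown for Slfn5, Slfn8 and Slfn9, because those hold the letters of an interferon-stimulated response element. The motif searched was GAAANNGAAA on both strands, and its matches are in capitals. Slfn9 lies on the reverse strand (chr11:82991781-82992080), as does Slfn8 (chr11:83020761-83021060), and Slfn5 on the forward strand (chr11:82951852-82952151). The RefSeq start of Slfn5 differs from the gene start used for positions here (chr11:82951349), so that its window lies within the annotated gene.

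Slfn9: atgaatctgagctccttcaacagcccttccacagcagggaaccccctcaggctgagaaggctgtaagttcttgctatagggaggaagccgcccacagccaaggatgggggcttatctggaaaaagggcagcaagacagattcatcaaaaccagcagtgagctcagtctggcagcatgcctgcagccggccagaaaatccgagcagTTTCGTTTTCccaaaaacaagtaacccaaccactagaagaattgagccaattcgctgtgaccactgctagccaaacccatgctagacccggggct

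Slfn8: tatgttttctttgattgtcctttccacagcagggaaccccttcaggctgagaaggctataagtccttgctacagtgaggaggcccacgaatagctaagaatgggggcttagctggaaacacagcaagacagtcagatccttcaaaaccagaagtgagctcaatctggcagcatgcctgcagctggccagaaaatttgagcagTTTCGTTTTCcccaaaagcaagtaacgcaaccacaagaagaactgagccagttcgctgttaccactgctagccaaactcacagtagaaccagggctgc

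Slfn5: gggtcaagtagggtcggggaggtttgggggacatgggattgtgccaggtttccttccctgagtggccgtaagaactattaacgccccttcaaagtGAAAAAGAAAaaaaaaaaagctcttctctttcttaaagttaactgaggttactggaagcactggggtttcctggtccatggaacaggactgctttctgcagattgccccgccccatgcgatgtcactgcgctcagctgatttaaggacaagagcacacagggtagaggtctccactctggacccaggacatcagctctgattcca

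The match began at position -45 from the start in Slfn9 and at -48 in Slfn8, with the same 10 letters in both, and at -155 in Slfn5. Slfn8 had an additional start in RefSeq, from which the same match lay at -136. The windows of Slfn8 and Slfn9 were 84.9% identical (248 of 292 aligned bases), so these 2 matches are not independent. No match was found in the windows of Slfn1, Slfn2, Slfn3 and Slfn4, and TTCNNNGAA, the letters of a gamma-activated site, was found in none of the 7. Among all 32851 promoter windows 3.44% held the first motif and 8.30% the second. CpG sites numbered 6 in Slfn5, 6 in Slfn9, 6 in Slfn1, 4 in Slfn8, 2 in Slfn2, 7 in Slfn4 and 5 in Slfn3, against a median of 7 over all windows. A match is a description of the letters only.

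Levels were compared between members per length, as read pairs per kb of annotated exons scaled to the same total in each library (TPM). Slfn8 had the highest level (48.5 ± 6.72 TPM for wild-type, SD, n = 4, with 59.2 ± 2.75 under the PROSER1 KO label, SD, n = 3), followed by Slfn9 (27.6 ± 5.12 and 46.1 ± 5.76 TPM). Slfn2 (16.2 ± 4.73 and 24.3 ± 3.01 TPM), Slfn10-ps (13.2 ± 1.20 and 16.97 ± 1.60), Slfn5 (12.9 ± 1.69 and 13.3 ± 0.226) and Slfn3 (11.6 ± 1.14 and 13.9 ± 1.03) followed. Slfn4 (0.456 ± 0.324 and 0.533 ± 0.319 TPM) and Slfn1 (0.281 ± 0.219 and 0.281 ± 0.163 TPM) were lowest. Within each genotype Slfn8 lay above Slfn9, Slfn9 above Slfn2 and Slfn3 above Slfn4 in all libraries, whereas Slfn5 and Slfn3 overlapped, as did Slfn4 and Slfn1. Slfn2 overlapped with Slfn10-ps, and Slfn10-ps with Slfn5, in wild-type only. Of the members next to each other in this order, only Slfn3 and Slfn4 remained apart with all 7 libraries pooled. Within each single library Slfn8 still lay above Slfn9, and Slfn9 above Slfn2. The mean level of Slfn8 exceeded that of 89.0% of detected genes and the mean level of Slfn1 that of 31.2%.

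Slfn1 (ENSMUSG00000078763, chr11:83116849-83122670) and Slfn2 (ENSMUSG00000072620, chr11:83065112-83070678), the short forms, differed widely in level. Normalised counts of Slfn1, the founding member of the family, were 14.4, 6.31, 0 and 11.6 in wild-type libraries 1 to 4 and 8.35, 2.54 and 11.5 in libraries 1 to 3 labelled PROSER1 KO. Slfn1 was near the limit of detection everywhere, the groups overlapped, and with a mean below 10 it was the 1 member that did not enter the comparison across genes.

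Slfn2, which protects transfer RNA from cleavage and restrains the activation of T cells and monocytes, had 500.0, 476, 257 and 351 normalised counts in the wild-type libraries and 643, 495 and 559.7 in those labelled PROSER1 KO. Wild-type library 3 was the lowest and library 1 labelled PROSER1 KO the highest, and the groups overlapped, since library 2 labelled PROSER1 KO lay just below wild-type library 1. The wild-type mean was 396 ± 113 (SD, n = 4) and that under the PROSER1 KO label 566 ± 74.0 (SD, n = 3), which gives 0.55 as log2 fold change (standard error 0.22). The highest wild-type library held 1.94 times the normalised count of the lowest, and without wild-type library 3 the log2 fold change was 0.36.

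Among the intermediate forms, Slfn3 (ENSMUSG00000018986, chr11:83191330-83215154), which is expressed in T cells and gut epithelium, had 551, 596, 557 and 607 normalised counts in wild-type and 677, 674 and 642 in the libraries labelled PROSER1 KO. Every library labelled PROSER1 KO lay above every wild-type library, by a small margin, and Slfn3 varied little within a group (coefficient of variation 4.83% and 2.91%). The log2 fold change was 0.20 (standard error 0.076).

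Slfn4 (ENSMUSG00000000204, chr11:83175186-83190216), a gene of the myeloid lineage, had 46.2, 37.0, 14.9 and 5.80 normalised counts in wild-type and 9.39, 34.7 and 45.1 in the libraries labelled PROSER1 KO. Both groups spanned low and high libraries and overlapped over nearly their whole range, and the direction of the fold change (0.30, standard error 0.74, on the log2 scale) turned when single libraries were left out (between -0.25 and 0.95). Some of the neutrophil granule genes varied between the same libraries. Ltf, for example, had 1077, 334, 110.3 and 147 normalised counts in wild-type and 156, 230.2 and 734 in the libraries labelled PROSER1 KO. Wild-type library 1 and library 3 labelled PROSER1 KO were highest in their groups for Slfn4 and for 5 of the 7 neutrophil markers (Camp, Ltf, Ngp, S100a8 and S100a9), a pattern noticed after the values had been seen. It was shared by 2 of the 9 monocyte and macrophage markers (Fcgr1 and Ly6c2), by the LSK marker Cd48 and by no marker of the other lists. For the neutrophil markers Mpo and Elane, wild-type library 1 was instead the lowest of its group (15049 and 578 normalised counts). Library 2 labelled PROSER1 KO was the highest of its group for both. The 7 neutrophil markers summed to 20689, 18358, 20744 and 19682 normalised counts in wild-type and 16390.4, 20452 and 20870.2 in the libraries labelled PROSER1 KO, none was at 0, and the most abundant was Mpo (mean 16817.5), which multipotent progenitors express as well. Their part in the level of Slfn4 was not tested, and in bulk RNA more cells of a type cannot be told apart from more RNA per cell.

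**Figure D1:**
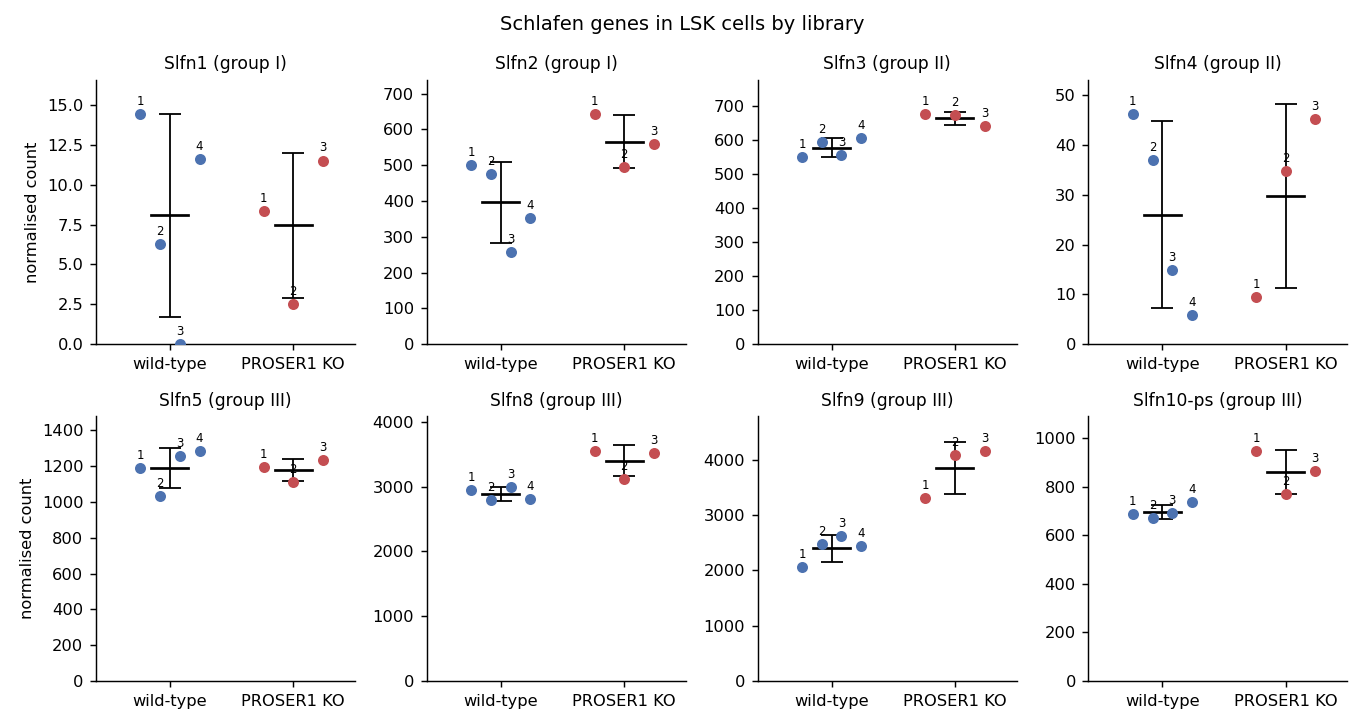
Normalised counts of the 8 Schlafen genes (vertical axis, from 0) in each wild-type library (blue) and each library labelled PROSER1 KO (red), with replicate numbers, group means (horizontal lines) and SD (bars). Slfn3, Slfn8, Slfn9 and Slfn10-ps show no overlap between the groups, and Slfn1, Slfn2, Slfn4 and Slfn5 do overlap.

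Slfn5 (ENSMUSG00000054404, chr11:82951349-82964840), a nuclear, interferon-inducible member of the long form, had 1190.5, 1035, 1257 and 1286 normalised counts in wild-type and 1197, 1114 and 1233 in the libraries labelled PROSER1 KO. The groups overlapped completely, all libraries labelled PROSER1 KO lying within the wild-type range. The log2 fold change was -0.01 (standard error 0.084), and its sign changed when single libraries were left out. The antisense gene Slfn5os, which overlaps Slfn5 on the opposite strand, had at most 5.22 normalised counts in any library. Whether the counting used the strand was not given in the sources used here.

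Slfn8 (ENSMUSG00000035208, chr11:83002158-83020810), a long-form member found in T cells and macrophages, had 2950.2, 2786, 2995 and 2810.1 normalised counts in wild-type and 3549, 3119.9 and 3516 in the libraries labelled PROSER1 KO. The groups did not overlap, with library 2 labelled PROSER1 KO nearest to the wild-type libraries. The wild-type mean was 2885 ± 103 (SD, n = 4) and that under the PROSER1 KO label 3395 ± 239 (SD, n = 3), which gives 0.23 as log2 fold change (standard error 0.059).

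Slfn9 (ENSMUSG00000069793, chr11:82978390-82991830), the long-form neighbour of Slfn8, had 2050.2, 2467, 2622 and 2445 normalised counts in wild-type and 3305, 4077 and 4157 in the libraries labelled PROSER1 KO. Wild-type library 1 was the lowest, libraries 2 and 3 labelled PROSER1 KO were the highest, and library 1 labelled PROSER1 KO lay between these and the wild-type libraries. The wild-type mean was 2396 ± 244 (SD, n = 4) and that under the PROSER1 KO label 3846 ± 471 (SD, n = 3), which gives 0.68 as log2 fold change (standard error 0.10). This was the largest value among the tested members with all libraries, but Slfn2 or Slfn4 had a larger one without wild-type library 1 or without library 1 or 2 labelled PROSER1 KO.

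Slfn10-ps (ENSMUSG00000072621, chr11:83028130-83040042), the pseudogene, had 687, 672, 691 and 736 normalised counts in wild-type and 948, 769 and 864 in the libraries labelled PROSER1 KO. Here too the groups did not overlap, and the order of the libraries labelled PROSER1 KO (library 1 highest, library 2 lowest) was that of Slfn8 and not that of Slfn9. The wild-type mean was 696 ± 27.8 (SD, n = 4) and that under the PROSER1 KO label 861 ± 89.6 (SD, n = 3), which gives 0.30 as log2 fold change (standard error 0.085).

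In the comparison across all genes (limma on log2(normalised count + 1), genes with a mean of at least 10), 7 of the 8 members were tested. A gene was called at a Benjamini-Hochberg adjusted p under 0.05 over all tested genes and a fold change above 1.5, on a scale that understates the change of low genes. By this rule 1 of the 7 tested members was called, Slfn9 (limma, adjusted p = 0.029), higher in 3 of 3 libraries labelled PROSER1 KO, against 0.258% of all 16251 tested genes in either direction and 0.123% called higher. The other 6 tested members were not called (limma, adjusted p from 0.204 for Slfn8 to 0.982 for Slfn5). With DESeq2 the adjusted p of Slfn8 was 0.031, but its log2 fold change of 0.23 lay below the minimum for a call. The groups did not overlap for 4 members (Slfn3, Slfn8, Slfn9 and Slfn10-ps), all of them higher in the libraries labelled PROSER1 KO, against 5.17% of tested genes higher and 10% in either direction. Since this contrast was known when the family was taken up, nothing is read from these counts. The call of Slfn9 was lost when wild-type library 1, 2 or 4 or library 2 or 3 labelled PROSER1 KO was left out (limma, adjusted p from 0.055 to 0.151), while its log2 fold change lay between 0.61 and 0.79 with any 1 of the 7 libraries omitted.

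**Figure D2:**
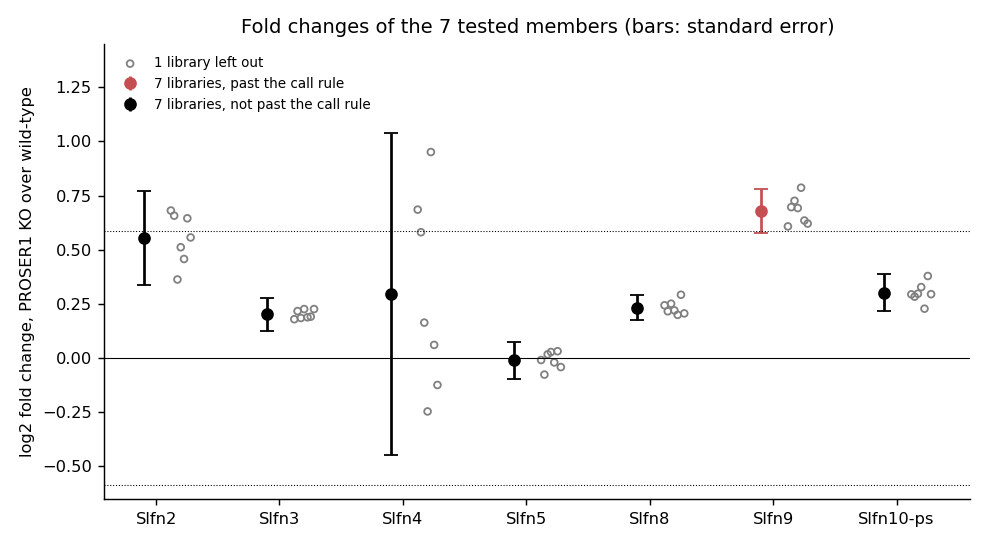
Log2 fold changes of the 7 tested members (vertical axis, libraries labelled PROSER1 KO over wild-type) from all 7 libraries (filled points, with standard errors) and after leaving out 1 library at a time (open circles), where dotted lines mark a fold change of 1.5. Slfn9 lies at 0.68, Slfn5 at -0.01, and the values of Slfn4 spread from -0.25 to 0.95.

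Because Slfn8, Slfn9 and Slfn10-ps share sequence, they were also summed to 1 feature, an alternative chosen after the data had been seen. The sum was 5687, 5924, 6308 and 5991 normalised counts in wild-type and 7802, 7966 and 8537 in the libraries labelled PROSER1 KO. Relative to their mean, libraries of the same group lay closer together for the sum than for Slfn9 alone, and the groups did not overlap. The fold change of the sum was 1.36 (0.44 on the log2 scale, standard error 0.051), below the minimum of 1.5 for a call (limma, adjusted p = 0.0079 over all tested features).

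The ratio of Slfn9 to Slfn8 does not depend on the size factors. It was 0.695, 0.886, 0.875 and 0.870 in wild-type and 0.931, 1.31 and 1.18 in the libraries labelled PROSER1 KO. Slfn9 thus had fewer normalised counts than Slfn8 in all wild-type libraries and in library 1 labelled PROSER1 KO, and more in libraries 2 and 3 labelled PROSER1 KO. The ratio of Slfn9 to Slfn10-ps, 2.99, 3.67, 3.80 and 3.32 in wild-type, then 3.49, 5.30 and 4.81 under the PROSER1 KO label, overlapped between the groups, since library 1 labelled PROSER1 KO lay within the wild-type range. The ratio of Slfn10-ps to Slfn8 was 0.233, 0.241, 0.231 and 0.262 in wild-type and 0.267, 0.247 and 0.246 in the libraries labelled PROSER1 KO, and these groups overlapped too.

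Read pairs of the family made up 0.0203%, 0.0210%, 0.0220% and 0.0202% of all read pairs in wild-type and 0.0267%, 0.0269% and 0.0282% in the libraries labelled PROSER1 KO. Group III members, Slfn10-ps included, took most of them, 86.1% to 90.1% in wild-type, with 87.1% to 88.6% under the PROSER1 KO label. Within the family, the share of Slfn9 was 29.3% ± 2.49 (SD, n = 4) for wild-type, compared with 36.4% ± 3.98 (SD, n = 3) under the PROSER1 KO label, without overlap. The shares of Slfn5 (14.6% ± 1.21 and 11.2% ± 0.376) and Slfn3 (7.07% ± 0.363 and 6.31% ± 0.421) were lower without overlap. Shares add up to the whole, so that a larger share of Slfn9 lowers those of the others, and the share of Slfn8 (35.3% ± 1.29 and 32.2% ± 2.02) overlapped between the groups.

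**Figure D3:**
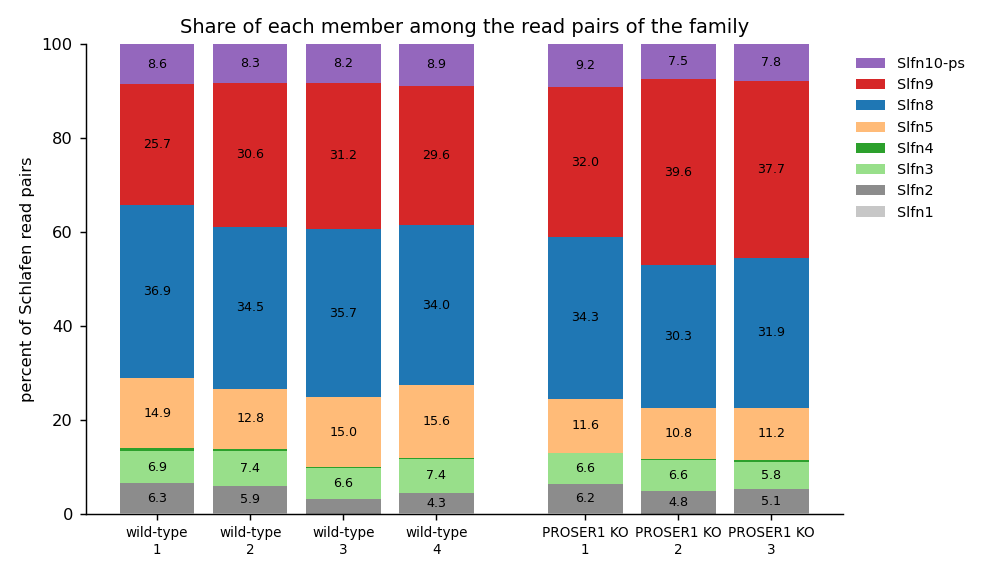
Percent of the Schlafen read pairs of each library (bars, vertical axis) that fell on each member, for 4 wild-type libraries beside 3 with the PROSER1 KO label. The share of Slfn9 runs from 25.7% to 31.2% in wild-type, then from 32.0% to 39.6% under the PROSER1 KO label.

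The members also differed in how they varied between libraries, measured as the root mean square difference of their log2 deviations from their own mean over the 7 libraries. Slfn8 and Slfn10-ps were the most alike pair (0.0739), and each lay closer to Slfn3 (0.104 and 0.106) than to Slfn9 (0.282 and 0.273). Over all tested genes, the 3 most like Slfn9 were Pros1 (0.0844, chromosome 16), Pcdh7 (0.0912, chromosome 5) and Slc7a8 (0.0919, chromosome 14). They were picked as the nearest of all 16251 tested genes, so that being nearer than any of the few Schlafen genes says little. The genes most like Slfn8, the member with the highest level per length, were Blvrb (0.0407), Pip4k2a (0.0454) and Zc2hc1a (0.0468). The measure includes the difference between the genotypes. These values describe 7 libraries of 2 genotypes and carry no test.

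Of the genes within 1 Mb of the cluster, 75 besides the members were in the table and 32 were tested. None of these 32 was called with limma or edgeR, 2 had an unadjusted p under 0.05 (beside 9.73% of all tested genes), and DESeq2 called 1 (Wfdc17), beside 165 of 19070 genes over the table. Their median log2 fold change was -0.03, beside 0.00 over all 16251 tested genes. Wfdc17 had 478, 322, 483 and 359 normalised counts in wild-type and 688, 694 and 547 in the libraries labelled PROSER1 KO. These groups did not overlap, and the log2 fold change was 0.66 (standard error 0.16, limma, adjusted p = 0.196). The largest fold changes besides were those of the weakly expressed Dusp14 (-0.67, standard error 0.60) and Snord7 (0.51, standard error 0.51), and Rffl (-0.01) and AI662270 (0.00) had the smallest. AI662270, which lies next to Slfn3, had 8430.5 to 9076 normalised counts in wild-type, with 8100.3 to 9193 under the PROSER1 KO label. The other Schlafen genes were near the limit of detection, with at most 4.51 normalised counts for Slfn14, which lies beside the cluster, and at most 7.68 for Slfnl1 on chromosome 4.

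**Figure D4:**
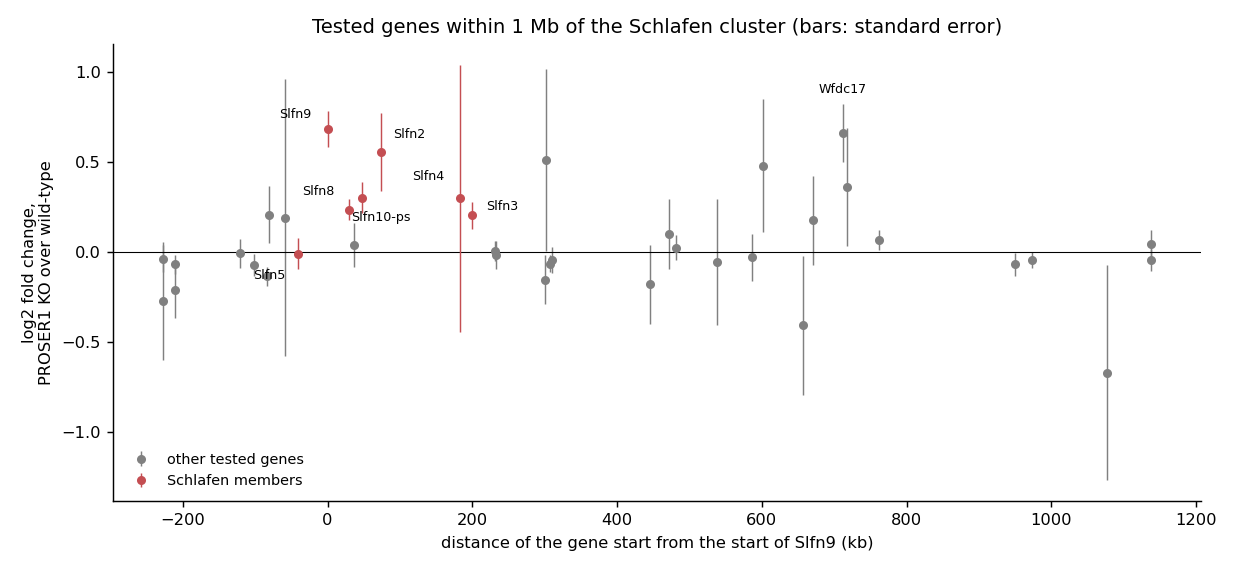
Log2 fold changes with standard errors (vertical axis, libraries labelled PROSER1 KO over wild-type) of the 7 tested Schlafen genes (red) and the 32 other tested genes (grey) within 1 Mb of the cluster, by the distance of their start from that of Slfn9 in kb. Slfn9 (0.68) and Wfdc17 (0.66) are the highest, and AI662270, next to Slfn3, lies at 0.00.

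Genes that sense and pass on interferon were all expressed. None of the 18 genes for interferon receptors and signalling was called with limma, edgeR or DESeq2, 3 had an unadjusted p under 0.05 (beside 9.73% of all tested genes), and the median log2 fold change was 0.02, beside 0.00 over all tested genes. Irf9, the DNA-binding subunit of the complex that binds the response element, had 3778, 3745, 4370.1 and 3939 normalised counts in wild-type and 4792, 4415 and 4393 in those labelled PROSER1 KO (log2 fold change 0.20, standard error 0.064, limma, adjusted p = 0.345). The groups did not overlap, but library 3 labelled PROSER1 KO was close to wild-type library 3. The log2 fold changes of Usp18, a brake on the receptor, and of Ifngr2, a receptor chain, were 0.25 and 0.15, and those of the kinase Jak1 and the factor Irf5 were 0.00 and 0.01.

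Of 43 interferon-stimulated genes other than the Schlafen family, 0 were called with limma, edgeR or DESeq2, while 9 had an unadjusted p under 0.05, beside 9.73% of all tested genes. Log2 fold changes were above 0 for 37 and below 0 for 6, beside 50.6% above 0 over all tested genes, with a median of 0.10 and a middle range from 0.03 to 0.17, beside -0.09 to 0.10 over all tested genes. The guanylate-binding protein gene Gbp3 had 1964, 2135, 1947 and 1850.2 normalised counts in wild-type and 2757, 2778 and 2635 in the libraries labelled PROSER1 KO. Its groups did not overlap and its adjusted p was 0.012 (limma), but its log2 fold change of 0.47 (standard error 0.059) lay below the minimum for a call. Log2 fold changes of Iigp1 and Ifi27l2a were 0.41 and 0.27, and those of Mx1 and Lgals3bp were both -0.01.

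Genes for the cleavage and protection of transfer RNA, the process in which Slfn2 acts, were few. Of the 5, 1 was called higher, the ribonuclease gene Rnase4, beside 0.123% of all tested genes. The list was chosen with earlier results of these data known, so nothing is read from this count. Rnase4 had 171, 151, 153 and 174 normalised counts in wild-type and 359, 339 and 324 in those labelled PROSER1 KO (log2 fold change 1.07, standard error 0.12, limma, adjusted p = 0.0070). The groups were far apart. Angiogenin itself (Ang), the ribonuclease against which Slfn2 protects, was at 9.27 to 19.5 normalised counts in wild-type, with 15.2 to 17.3 under the PROSER1 KO label, and its log2 fold change was 0.13 (standard error 0.38). Rnase4 and Ang overlap on chromosome 14, and the assignment of read pairs between them was not examined. The inhibitor gene Rnh1 and the methyltransferase genes Trdmt1 and Nsun2 had log2 fold changes of -0.03, -0.07 and 0.01.

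**Figure D5:**
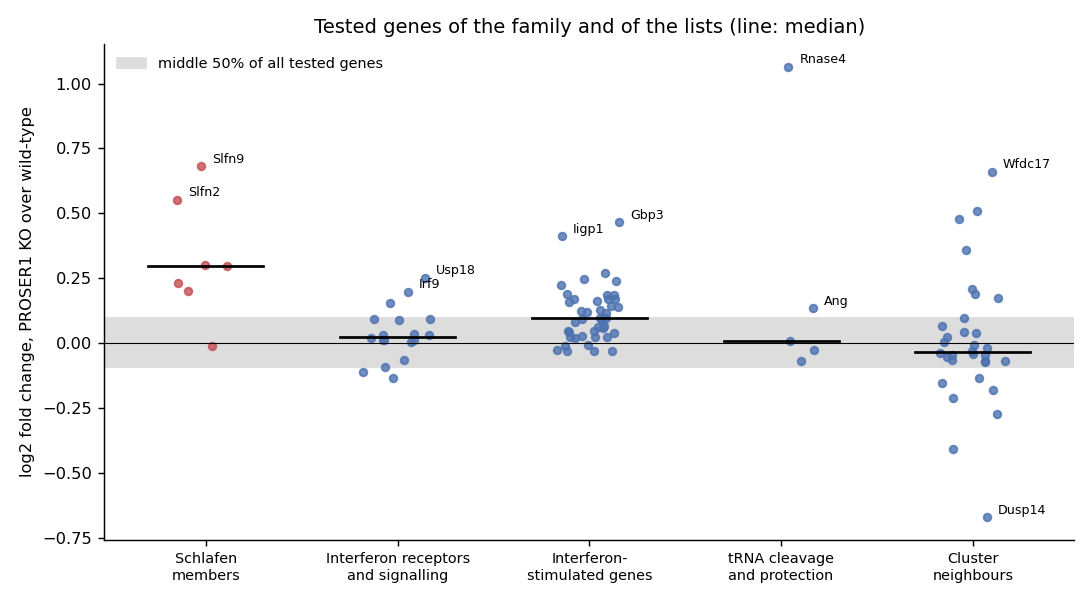
Log2 fold changes (vertical axis, libraries labelled PROSER1 KO over wild-type) of the tested Schlafen genes (red) and of the tested genes of 4 lists (blue), with the median of each (line) and the middle 50% of all 16251 tested genes (grey band, -0.09 to 0.10). The median of the 43 interferon-stimulated genes is 0.10, Gbp3 is at 0.47 and Rnase4 at 1.07.

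Markers of other cell types were looked at because such cells could carry Schlafen transcripts into the LSK gate. The summed level of every list overlapped between the groups, but each sum rests largely on its most abundant genes. Of the 60 marker genes, 4 did not overlap, beside 10% of all tested genes, and nothing is read from this count. Csf1r was higher (424 to 631 normalised counts in wild-type, with 657 to 870.0 under the PROSER1 KO label), whereas Cd4 (200.015 to 287 and 113 to 191), Cd14 (6.96 to 16.3 and 2.88 to 5.08) and the LSK marker Mecom (2683 to 3029.8 and 2160.4 to 2609.7) were lower. Their part in the results was not tested.

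The 13 markers of T and innate lymphoid cells summed to 10873, 8425, 8508 and 7786 normalised counts in wild-type and 11791, 7159.6 and 8051 in the libraries labelled PROSER1 KO (most abundant gene Nkg7, mean 2403). Library 1 labelled PROSER1 KO had the most Cd3g, at 697 normalised counts, against 20.9 to 52.9 in the wild-type libraries. It was the highest of all libraries for 8 of the 13 markers and not for the other 5 (Cd4, Gata3, Il7r, Nkg7 and Trac), Cd4 being lower there than in any wild-type library. It was the highest as well for 3 of the 4 plasmacytoid dendritic cell markers (Irf8, Siglech and Tcf4), for the B-cell markers Ebf1 and Pax5, and for Csf1r, Klf1, Flt3 and Slamf1. It was also the highest library for Slfn2, Slfn3, Slfn8 and Slfn10-ps, and the part of any of these cell types in this was not tested. Without it the log2 fold changes were 0.46 for Slfn2, 0.19 for Slfn3, 0.20 for Slfn8 and 0.23 for Slfn10-ps. The 9 markers of monocytes and macrophages (most abundant gene Lyz2, mean 4831) summed to 6585 to 7635 in wild-type, with 7341 to 7686 under the PROSER1 KO label. The 6 B-cell markers, 7 plasma cell markers, 4 plasmacytoid dendritic cell markers and 4 erythroid markers overlapped between the groups in their sums as well, and none of the marker genes was at 0 in all libraries or called with limma. Wild-type library 4 was the highest for all 7 plasma cell markers (sum 428871, against 170818 to 298722 elsewhere), for 4 of the 6 B-cell markers and for 3 of the 4 erythroid markers. Leaving it out lost the call of Slfn9, whose log2 fold change was then 0.69, against 0.68 with all libraries. The omission also reversed the log2 fold changes of Slfn4 (from 0.30 to -0.25) and Slfn5 (from -0.01 to 0.028), and the cause was not tested.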

How the data were processed

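The 7 libraries of LSK RNA were grouped by label (4 wild-type, 3 PROSER1 KO). The authors used Trimmomatic for trimming, STAR for mapping to mm10 and featureCounts for counting, and deposited a normalised signal, read pairs divided by a DESeq2 size factor. Whole read pairs were recovered from it (100% of values within 0.01 of a whole number). The methods name GENCODE release 25 and the file header release 10, while lengths, positions and shared stretches were taken from release M21 (GRCm38) and promoters from RefSeq.

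limma 3.58.1 (R 4.3.3, eBayes with trend) was fitted on log2(normalised count + 1) over all 16251 genes with a mean of at least 10. edgeR 4.0.16 and DESeq2 1.42.0 on recovered read pairs, other pseudocounts, filters and variance models, TMM factors, the replicate block and each library left out were alternatives. Procedures were tested on simulated data. Libraries of a group differed by more than counting noise allows (chi-square of 30.4 to 96.6 for each degree of freedom). The libraries are described as biological replicates, and whether each came from a separate animal is not said in the sources used here, so p-values measure the spread between these libraries.

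Named genes were all members, Proser1, Slfn14 and Slfnl1, every called gene of the fixed lists and otherwise the 3 largest and 2 smallest absolute fold changes of each, and the 3 genes most like the members with the largest fold change and highest level. The members and lists were chosen with earlier results of these data known.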

Additional observations from a re-analysis of the deposited data

Results flagged for a closer look

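The ratio of Slfn9 to Slfn8 stood out in wild-type library 1. It was 0.695 there and 0.870 to 0.886 in the other wild-type libraries, so that the gap to the nearest of them took 0.918 of the range of the group. Wild-type library 1 had the lowest Slfn9 level of all 7 libraries, and without it the log2 fold change of Slfn9 was 0.61 (limma, adjusted p = 0.055). Among many quantities looked at in this way, about 1 in 20 is marked by chance.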

How the results depend on the processing

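The number of called genes was 42, and it was 17 with eBayes without trend, 80 with robust eBayes, 165 with DESeq2 and 23 to 42 with a library left out (23 without PROSER1 KO replicate 2). Slfn9 was called in the comparison and under the pseudocounts, filters, robust eBayes, TMM factors, edgeR and DESeq2, whereas 0 members were called with eBayes without trend and, of the 7 omissions of a library, in 5 (0 to 1 members). With Slfn8, Slfn9 and Slfn10-ps summed as 1 feature (chosen after seeing the data), 0 members were called, but Slfn9 was then not tested on its own. The sum missed only the fold change minimum (fold change 1.36, limma, adjusted p = 0.0079). The adjusted p of Slfn9 (limma, edgeR or DESeq2) was at most 0.167 over all alternatives that tested it. Of the interferon genes 0 were called in all alternatives but the omission of the fold change minimum, which gave 1 (Gbp3), and 0 to 0 with a library left out. Same-numbered libraries did not deviate together (correlations of 0.023, 0.058 and -0.106), and differently numbered ones gave correlations from -0.131 to 0.142. The numbers were therefore not used as pairs in the main comparison, but with so few libraries this check cannot exclude a pairing. With the replicate number as a block, which leaves wild-type replicate 4 without weight, 35 genes were called, 1 member (Slfn9) and 0 interferon genes. The block turned the log2 fold change of Slfn4 to -0.25 and of Slfn5 to 0.028, as did leaving out wild-type replicate 4 (-0.25 and 0.028). Slfn4 was also reversed without PROSER1 KO replicate 3 (-0.12), and Slfn5 without wild-type replicate 3 (0.02) or PROSER1 KO replicate 2 (0.032). With a library left out, log2 fold changes ran from -0.25 to 0.95 for Slfn4 and from -0.076 to 0.032 for Slfn5. The cause was not tested. The other 5 tested members kept a positive log2 fold change under all alternatives that tested them singly. The median over the 7 tested members, 0.30, was 0.22 with edgeR and with DESeq2, which tested Slfn1 as well. It was 0.29 without a filter, where Slfn1 entered too, and 0.23 with a pseudocount of 10 and with the block. With a library left out the median ran from 0.23 to 0.29. Slfn1, untested in the main comparison, had 0.28 without a filter but -0.14 with edgeR and -0.13 with DESeq2. With the longest transcript in place of all exons, Slfn3 moved ahead of Slfn10-ps and Slfn5 in mean level over all 7 libraries. Under the PROSER1 KO label alone, the mean of Slfn10-ps (13.5 TPM) stayed above that of Slfn3 (13.4 TPM). Depth limits Slfn1 and Slfn4, which had at most 15 and 48 read pairs in a library.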
